A study of Mus musculus with 17 samples.

Results

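Collagen chain genes were examined in RNA-seq data on mouse bile duct, collected for work on extrahepatic cholangiocarcinoma, which is cancer of the large ducts that carry bile from the liver to the gut. The members were the protein-coding genes whose symbol is Col, a number, the letter a and a number. This rule took 44 of the 43346 genes in the table, 11 of them fibrillar chains, 6 basement membrane chains of type IV, 6 beaded filament chains of type VI and 21 chains of other types. All 17 samples were labelled with the same tissue, and strain, genotype, treatment, age and sex are unknown here, as is whether a library came from tumour. Column names of the count table consist of a code and a number. The codes R62848, R62850, R63289, R63496 and R63500 have 3 libraries each and R63494 has 2. No name matched a sample title, so libraries go by their column names, and the meaning of a code is unknown here. Nothing says that libraries came from separate animals. P-values therefore set differences between codes only against the spread between libraries that share a code, which may be technical.

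A collagen molecule is built from chains that wind around each other in a long helix of repeated glycine-containing units. Fibrillar collagens assemble into the banded fibrils that give connective tissue its strength, type IV forms the sheet under epithelium and around vessels and muscle, and type VI forms beaded filaments at the edge between cells and matrix. In the bile duct wall and in scarring or tumour stroma, fibrils are made mainly by fibroblasts, whereas type IV chains also come from endothelium, mural cells and epithelium. In tissue RNA, fewer cells of a type and less RNA per cell cannot be told apart, which holds for every level below.

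Library totals were 16400556 to 24152314 counts. All 8 markers of duct epithelium were detected above the expression filter, with a summed level of 5583 to 8705 CPM, which are counts per 1000000 counts of the genes kept by the expression filter, after the TMM correction for library composition. The 4 pancreatic acinar markers summed to 3512 to 82143 CPM in the 3 R62850 libraries and to 0.601 to 22.2 CPM in the other 14. Of the 4 cartilage markers, Matn1 and Matn3 reached at most 0.0925 and 0.523 CPM. Acan, which did not pass the filter, was 2.36 to 4.93 CPM in R62848, 3.198 to 7.78 CPM in R63500 and at most 1.75 CPM elsewhere. The 4 skeletal muscle markers summed to at most 1.85 CPM. Comp, which tendon and stromal fibroblasts also express, was 51.3 to 90.5 CPM in R62848, 17.3 to 36.5 CPM in R63500 and 3.03 to 47.7 CPM elsewhere.

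Together the 44 collagen genes took 0.329% of all counts in R63494_1 (95% Wilson interval 0.326% to 0.332%) and 1.90% in R63500_2 (1.89% to 1.90%), with a median of 0.744%. These intervals cover counting error only. On the CPM scale the summed level ran from 3373 in R63494_1 to 18852 in R63500_2, a 5.59-fold range. The sum was 15900 to 18852 CPM in the R63500 libraries and 15446 to 17091 CPM in the R62848 libraries. It was 6123 to 8564 CPM in R63496, 5738 to 7362 CPM in R63289, 6091 to 6702 CPM in R62850 and 3373 to 4192 CPM in R63494. Each R63500 and R62848 library thus lay above each library of the other codes, and both R63494 libraries lay below the rest.

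**Figure D1:**
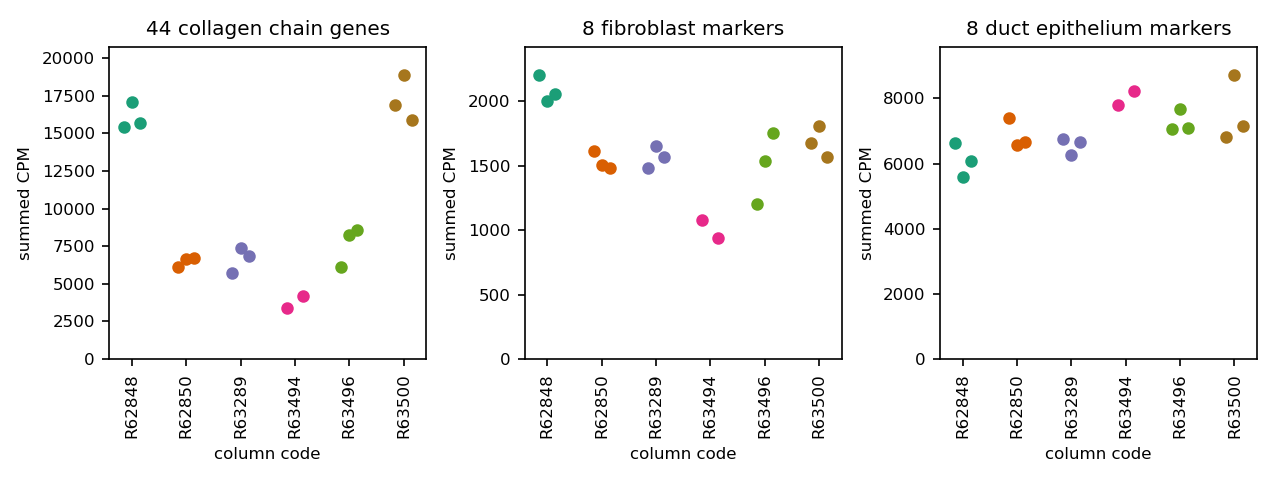
Summed CPM (linear axes from 0) of the 44 collagen chain genes, of 8 fibroblast markers and of 8 duct epithelium markers, with 1 point per library, grouped by column code. Collagen sums are 15446 CPM or more in R62848 and R63500 and 8564 CPM or less elsewhere. The fibroblast sums of R63500 (1568 to 1809 CPM) overlap those of R62850, R63289 and R63496, but single markers in that sum, not shown, differ in this.

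The plot of summed levels sets collagen beside cell type markers. The 8 fibroblast markers, which include the collagen-binding proteoglycans Dcn and Lum, summed to 2001 to 2199.8 CPM in R62848, 1568 to 1809 CPM in R63500 and 941 to 1076 CPM in R63494. In the other 3 codes they summed to 1198 to 1755 CPM, a range that overlapped the R63500 libraries. The single markers were split. Pdgfra, Pdgfrb, Mfap5, Pi16 and Thy1 were higher in every R63500 library than in any library outside R62848 and R63500. Pdgfrb, for example, was 68.8 to 74.0 CPM in R63500 and at most 58.1 CPM in those codes. Dcn (587 to 600 CPM in R63500), Lum and Dpt overlapped libraries of other codes. Endothelial sums were 357 to 391 CPM in R62848, 263 to 319 CPM in R63500 and 184 to 239.8 CPM elsewhere. Of the single endothelial markers, Pecam1, Cdh5 and Kdr set R62848 and R63500 above all other libraries, whereas Emcn, Tek and Vwf overlapped. Vwf was 42.1 to 79.4 CPM in R63500 and 75.4 to 95.7 CPM in R63494. Mural and smooth muscle sums were 427 to 488 CPM in R62848 and 279 to 418 CPM in R63500, with at most 386 CPM elsewhere. Duct epithelium sums were 5583 to 6623 CPM in R62848, 6808 to 8705 CPM in R63500 and 7786 to 8228 CPM in R63494, with the highest value in R63500_2, which also had the most collagen. Schwann cell sums were 155 to 166 CPM in R62848 and 159 to 175 CPM in R63500, below every library of the other codes (195 to 242 CPM). Reln, the tested stellate cell marker, was 15.02 to 31.4 CPM in R62848 and 13.7 to 14.5 CPM in R63500, and 30.8 to 55.5 CPM elsewhere. Macrophage sums were 247 to 287 CPM in R62848, 269.8 to 328 CPM in R63500 and 129 to 301 CPM elsewhere. Mesothelial sums were 197 to 219.7 CPM in R62848, 111 to 151 CPM in R63500 and 72.3 to 196 CPM elsewhere. Nearly all of this was Msln, at 191 to 209.7 CPM in R62848. Wt1 had another order, with 2.33 to 10.5 CPM in R63500 and at most 2.68 CPM elsewhere. The part of cell makeup in the collagen differences was not tested.

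Of the 44 members 35 passed the filter on low counts, and 30 of these differed between codes in edgeR's quasi-likelihood test (Benjamini-Hochberg adjusted p below 0.05 over 15795 genes). Among all genes tested the share called was 48.7%. The tested collagen genes had a median highest-to-lowest ratio of 6.003 over the 17 libraries, against 1.96 for all genes tested. Their SD of log2 CPM had a median of 0.71 over all libraries and 0.30 within codes, against 0.27 and 0.19 for all genes tested. By class, 9 of 10 fibrillar, 6 of 6 type IV, 6 of 6 type VI and 9 of 13 other chains were called. Of the marker lists, 8 of 8 fibroblast, 8 of 8 duct epithelium, 4 of 7 mural and smooth muscle, 4 of 6 endothelial, 3 of 4 tested Schwann cell and 3 of 3 macrophage markers were called. In the other marker lists 1 gene each was tested, and it was called for mesothelial, cartilage, hepatic stellate, acinar and hepatocyte markers and not for skeletal muscle. The 5 tested members that did not pass were Col7a1, Col11a2, Col13a1, Col14a1 and Col20a1.

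The order of the libraries recurred from chain to chain. For 18 of the 35 chains the 6 highest libraries were the 6 of R62848 and R63500, which held for 4.53% of all genes tested. R62848 and R63500 are the codes with the highest collagen sums in these same data, and R63494 has the lowest. The orders given here are thus not independent of those sums. They are a description and were not tested. The lowest library was one of R63494 for 26 chains, against 19.2% of all genes tested. The highest library was one of R63500 for 18 chains (17.1% of all genes) and one of R62848 for 12 (19.2% of all genes). By single library, R63500_2 was highest for 12 chains and R63494_1 lowest for 20, for which the shares over all genes tested were not computed.

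**Figure D2:**
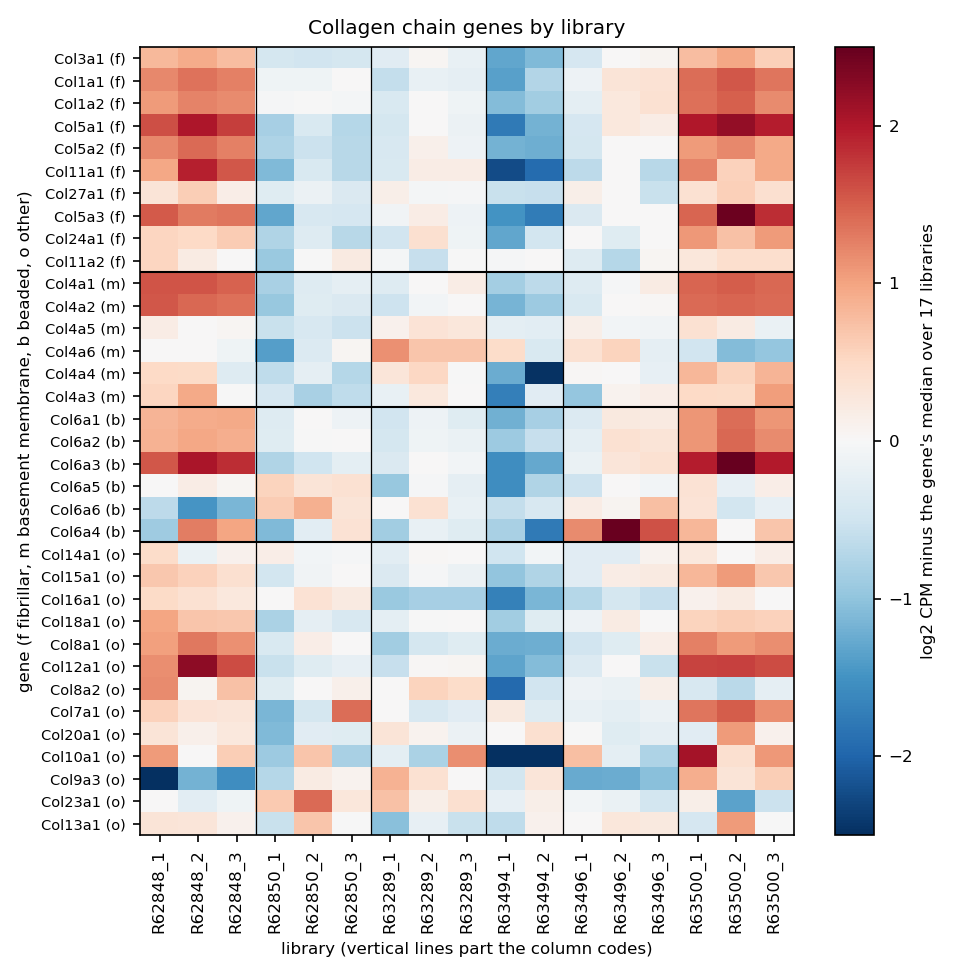
Log2 CPM of the 35 tested collagen chain genes in each of 17 libraries, minus the gene's median over the libraries (colour, cut at -2.5 and 2.5), with lines between classes and between column codes. Red columns under R62848 and R63500 and blue columns under R63494 run through most rows, with Col4a6, Col6a6, Col9a3 and Col14a1 among the rows that break the pattern.

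Levels of different chains were compared as RPKM, which is CPM divided by the gene length in the table in kilobases. The highest medians were those of Col3a1 (190.2 RPKM), Col1a1 (169 RPKM), Col6a1 (102 RPKM), Col1a2 (97.4 RPKM) and Col4a1 (59.3 RPKM). The RPKM ranges of Col3a1 (77.2 to 373) and Col1a1 (65.7 to 497) overlapped. Within libraries Col1a1 was the higher of the pair in 13 and Col3a1 in 4, the R63289 libraries and R63494_1. This order rests on the deposited lengths, 9816 bases for Col3a1 and 6563 for Col1a1. In CPM, without length, the medians were 1867 for Col3a1 and 1112 for Col1a1. Next came Col6a2 (44.1 RPKM), Col14a1 (43.3 RPKM), Col4a2 (40.7 RPKM), Col5a1 (26.9 RPKM), Col15a1 and Col16a1 (25.9 RPKM each) and Col5a2 (20.6 RPKM). The 5 highest chains of a library held 63.2% to 69.1% of its collagen RPKM. At the other end, 9 chains did not pass the filter.

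**Figure D3:**
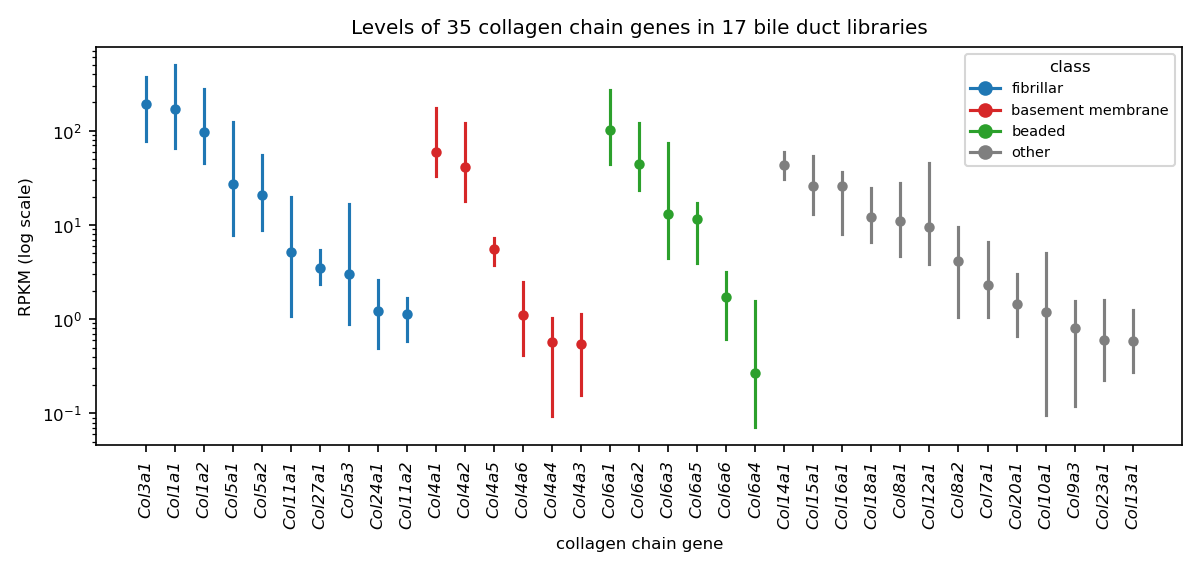
RPKM (log axis) of the 35 tested collagen chain genes by class, with the median over 17 libraries as a point and the lowest to highest library as a bar. Each class holds chains that differ widely in level, with Col3a1, Col4a1, Col6a1 and Col14a1 leading theirs at medians of 190.2, 59.3, 102 and 43.3 RPKM.

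Class shares of the collagen RPKM were steadier than the levels. Fibrillar chains held a median of 56.1% (50.2% in R63494_1 to 58.8% in R62848_2), type VI chains 18.4% (16.4% to 20.7%), other types 14.1% (9.36% to 18.2%) and type IV chains 12.3% (7.92% in R62850_1 to 15.8% in R62848_1). The share of other types was 9.36% to 11.6% in the R62848 and R63500 libraries and 12.3% to 18.2% in the rest. Type I alone took 26.4% to 33.5% and type III 14.5% to 22.2%. The R63289 libraries had the 3 highest type III shares, at 19.5% to 22.2%, and the R63500 libraries the 3 lowest, at 14.5% to 16.01%.

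Type I collagen, the main fibril of skin, bone and scar, is made of Col1a1 and Col1a2 chains. Col1a1 (ENSMUSG00000001506) spans 94936224 to 94953042 of mm10 chromosome 11. Its level was 431 CPM in the lowest library, 1112 CPM in the median and 3259.7 CPM in the highest. Its R63500 and R62848 libraries, at 2831 to 3259.7 and 2542 to 2838 CPM, lay above the 431 to 1428 CPM of the other codes, and R63494 had 431 and 668 CPM. Col1a1 differed between codes with a 7.56-fold range over the libraries (edgeR's quasi-likelihood test, adjusted p = 4.83e-09). Col1a2 (chromosome 6, from 4504814 to 4541543) ran from 555 over 1182 to 3329.5 CPM with the same codes at the ends (edgeR's quasi-likelihood test, adjusted p = 2.06e-09). The Col1a1 to Col1a2 ratio of RPKM had a median of 1.79 and stayed between 1.44 in R63494_1 and 1.95 in R63500_3. That 1.36-fold range of the ratio compares with 7.56-fold and 6.003-fold ranges of the chains. The level of the ratio, but not its range, rests on the deposited lengths (6563 and 12136 bases), since the median CPM were 1112 and 1182.

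Type III collagen, which forms thin fibrils with type I in soft tissue and vessel walls, consists of Col3a1 chains alone. Col3a1 (ENSMUSG00000026043) spans 45311538 to 45349706 of chromosome 1 and had 758 CPM in the lowest, 1867 CPM in the median and 3663 CPM in the highest library. It was 3177 to 3554 CPM in R62848 and 2823 to 3663 CPM in R63500, with at most 1963 CPM elsewhere. The code difference passed edgeR's quasi-likelihood test (adjusted p = 4.83e-09). Relative to Col1a1 in RPKM, Col3a1 ranged 2.10-fold, from 0.667 in R63500_3 to 1.40 in R63289_1. The R63500 libraries had ratios of 0.667 to 0.751, below every other library, and the R63289 libraries 1.14 to 1.40, above every library but R63494_1.

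Type V collagen starts and limits the growth of fibrils. Col5a1 (chromosome 2, from 27886425 to 28039514) stood at 66.7, 229 and 1049 CPM, a 15.7-fold range and the largest SD of log2 CPM among the fibrillar chains (1.29). Its level was 888 to 1049 CPM in R63500 and 694 to 925 CPM in R62848, against 66.7 to 273 CPM in the other codes (edgeR's quasi-likelihood test, adjusted p = 1.99e-08). Col5a2, its partner chain, spanned less, from 85.4 over 198 to 531 CPM, and was higher in R62848 (458 to 531 CPM) than in R63500 (381 to 453 CPM). The Col5a1 to Col5a2 ratio of RPKM was therefore 2.52 to 2.64 in R63500 and 1.71 to 1.97 in R62848, and 0.870 to 1.56 in the other codes, without overlap between these sets. Col5a3 was less abundant but ranged 18.7-fold, from 6.02 CPM in R63494_2 to 113 CPM in R63500_2. Col5a2 lies 24614 bases from Col3a1 on chromosome 1, on the opposite strand.

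The promoter stretches of Col3a1, the chain with the highest median RPKM, and Col5a1, the fibrillar chain with the largest SD of log2 CPM, are shown because both genes were highest in the same 6 libraries while their upstream sequences differ in composition. Each is the 250 bases before the gene's start, from RefSeq on GRCm38.p6, plus strand, chr1:45311288-45311537 and chr2:27886175-27886424. Capitals mark matches, on either strand, to 3 short motifs: the TATA box letters TATAAA, the box known as CCAAT, and the GC box letters GGGCGG.
Col3a1: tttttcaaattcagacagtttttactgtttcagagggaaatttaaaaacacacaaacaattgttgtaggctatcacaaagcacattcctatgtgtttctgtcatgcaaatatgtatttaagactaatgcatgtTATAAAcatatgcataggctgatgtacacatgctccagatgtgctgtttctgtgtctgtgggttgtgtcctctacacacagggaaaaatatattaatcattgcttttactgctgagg
Col5a1: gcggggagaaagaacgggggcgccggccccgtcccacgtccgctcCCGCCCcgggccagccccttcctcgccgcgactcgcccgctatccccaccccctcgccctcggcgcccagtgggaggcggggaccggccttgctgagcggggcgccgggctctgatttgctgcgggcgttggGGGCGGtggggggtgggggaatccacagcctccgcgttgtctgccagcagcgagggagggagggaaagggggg
The Col3a1 stretch is 35.2% G or C with 0 CG pairs and holds TATAAA with its first base 117 bases before the start. The Col5a1 stretch is 76.4% G or C with 28 CG pairs and holds GGGCGG on the plus strand 73 bases and on the minus strand 205 bases before the start. RefSeq windows were matched for 35 members (38 windows). These are not the 35 tested chains, since Col1a1 had no window and Col9a1, Col17a1 and Col25a1, which were below the filter, had one. The 250 bases before the start held the GC box letters in 57.9% of collagen windows and 32.7% of all 32851 windows. The collagen windows were also richer in G and C (median 59% against 52.4%) and in CG pairs (9.5 against 6), whose part in that share was not tested. The CCAAT letters were in 34.2% of collagen and 33.8% of all windows, and the TATA box letters in 13.2% and 12.4%. No 2 motif matches share bases in the 2 stretches shown, and a match is a description of letters, not of a bound factor.

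The minor fibrillar chains were lower and mixed. Col11a1, a cartilage fibril chain that tumour stroma can also express, stood at 10.4, 49.6 and 190.1 CPM, with 97.5 to 190.1 CPM in R62848 and 74.5 to 117 CPM in R63500. Its 18.3-fold range passed edgeR's quasi-likelihood test between codes (adjusted p = 2.74e-05). Col11a2, the partner of Col11a1 in cartilage, stayed at or below 11.4 CPM and did not pass (edgeR's quasi-likelihood test, adjusted p = 0.145). Col27a1 (30.7 to 69.8 CPM) and Col24a1 (3.75 to 20.1 CPM) were called and were highest in R62848_2 and R63500_1. Col2a1, the main cartilage chain, had counts in 5 libraries, 8 at most.

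**Figure D4:**
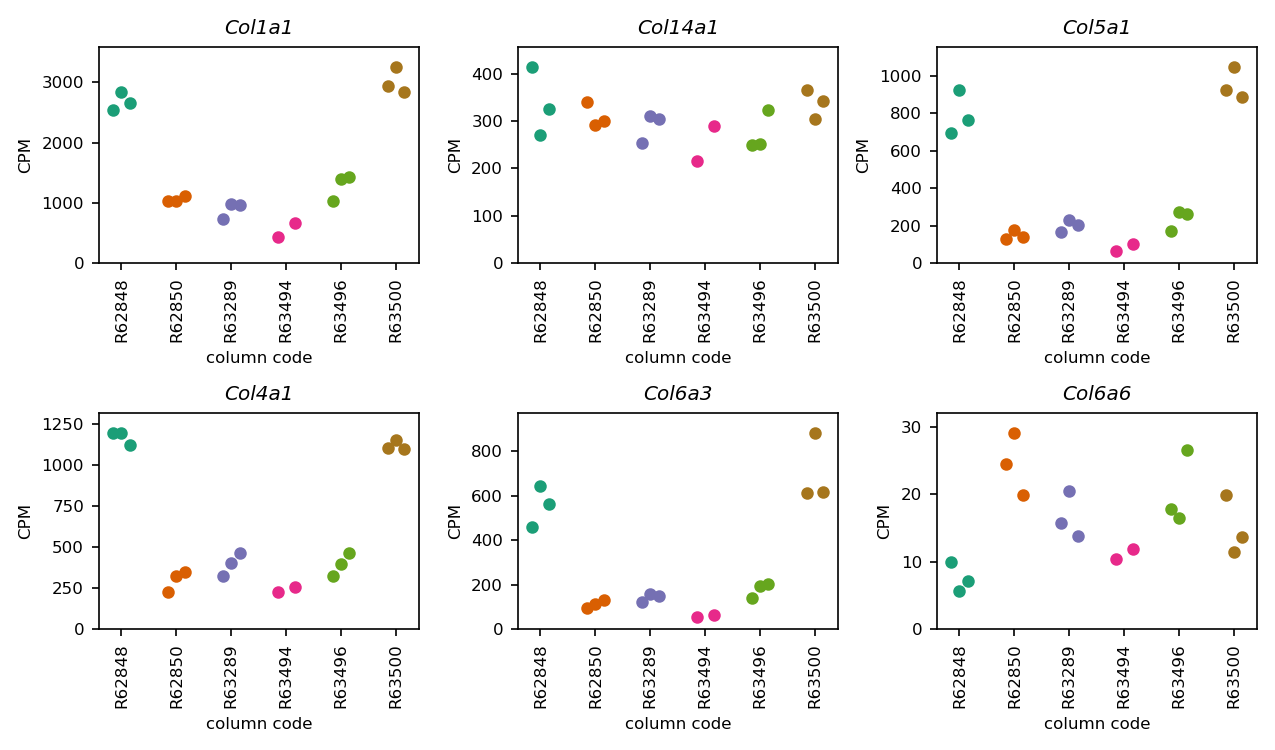
CPM (linear axes from 0) of 6 collagen chain genes, with 1 point per library, grouped by column code. Col1a1, Col5a1, Col4a1 and Col6a3 are high in R62848 and R63500, Col14a1 stays within 215 to 415 CPM in every code, and Col6a6 is lowest in R62848.

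Type IV chains form the basement membrane network, and the Col4a1 and Col4a2 chains are its form in nearly all tissues. Col4a1 (chromosome 8, from 11198423 to 11312826) stood at 225, 404 and 1199.9 CPM, and Col4a2 (from 11312805 to 11449287) at 119.7, 269 and 795 CPM. Both were high in R62848 (1121 to 1199.9 and 699 to 795 CPM) and R63500 (1100 to 1152 and 719.8 to 738 CPM), and the highest values elsewhere were 466 and 276 CPM. Both differed between codes in edgeR's quasi-likelihood test (adjusted p = 3.59e-09 and 7.00e-09). Col4a2 had the largest SD of log2 CPM among the type IV chains (0.98). The ratio of Col4a1 to Col4a2 in RPKM nonetheless stayed between 1.43 and 1.82, a 1.27-fold range beside 5.34-fold and 6.64-fold ranges of the chains. Its highest values, 1.74 and 1.82, were those of the R63494 libraries.

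Col4a1 and Col4a2 lie head to head on opposite strands, and in the table their spans share 22 bases. The 30 bases on the plus strand around that overlap (GRCm38.p6, chr8:11312801-11312830) are shown since both chains start from them. Capitals mark the shared bases, in which reads of the genes cannot be told apart, since the strand setting of the counting is unknown here.
Col4a1_Col4a2: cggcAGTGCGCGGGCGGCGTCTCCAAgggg
The RefSeq windows of both genes hold a CCAAT match. Col4a4 and Col4a3, also head to head on chromosome 1, are 71 bases apart, and Col4a6 and Col4a5 on the X chromosome 1308 bases apart.

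These other head-to-head pairs did not keep so narrow a ratio. The Col4a5 to Col4a6 ratio of RPKM ran from 2.45 in R63289_1 to 12.6 in R63500_2, and the Col4a3 to Col4a4 ratio from 0.469 in R63496_1 to 4.77 in R63494_2. Col4a3 and Col4a4 had 23 to 223 counts per library, and R63494_2, with the highest ratio, had 103 and 23 counts. Without that library the highest Col4a3 to Col4a4 ratio was 1.32. Col4a3 and Col4a4, chains of the kidney filter membrane, stood at 1.57 to 11.4 and 0.996 to 10.9 CPM. Col4a5 had a 1.92-fold range, narrow for a collagen chain but near the median of 1.96 for all genes tested. Its level ran from 25.5 CPM in R62850_1 to 48.9 CPM in R63500_1, with all 3 R62850 libraries (25.5 to 28.7 CPM) below the rest. Col4a5 is thus set apart mainly by R62850. Col4a5 differed between codes (edgeR's quasi-likelihood test, adjusted p = 0.000568) but did not pass without R62850 (adjusted p = 0.0572). Col4a6 was high in R63289 (14.3 to 19.6 CPM) and low in R63500 (4.12 to 6.30 CPM), although R62850_1 was lowest of all at 3.32 CPM (edgeR's quasi-likelihood test, adjusted p = 0.00220).

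**Figure D5:**
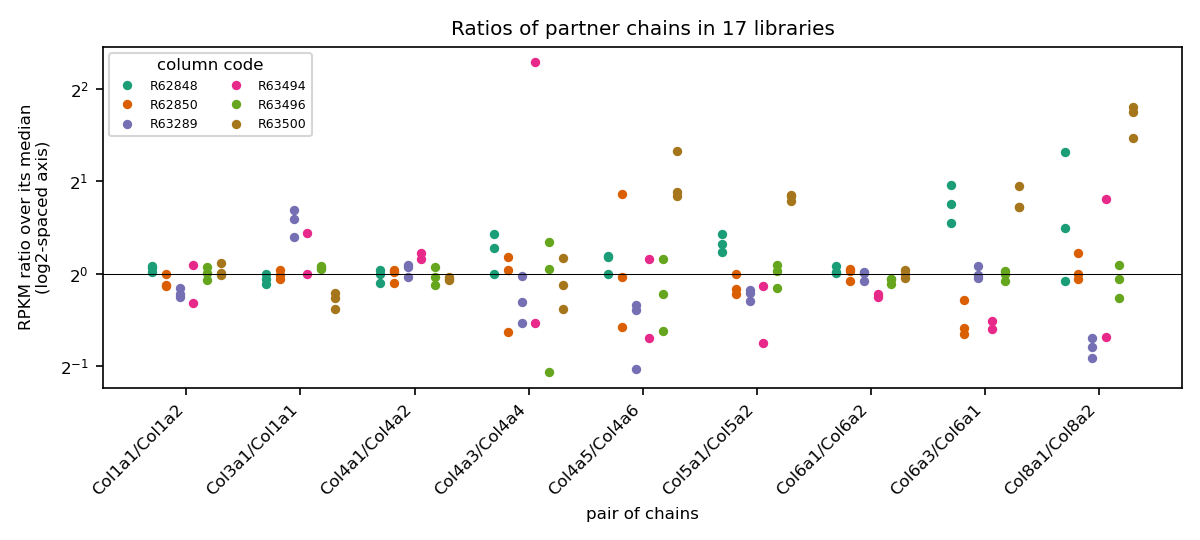
RPKM ratio of 9 pairs of collagen chains in 17 libraries, each divided by its median (log axis), coloured by column code. Col1a1/Col1a2, Col4a1/Col4a2 and Col6a1/Col6a2 stay within 1.36-fold ranges or less, whereas Col5a1/Col5a2, Col6a3/Col6a1 and Col8a1/Col8a2 range 3.03-fold, 3.05-fold and 6.55-fold.

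Type VI filaments are built from the Col6a1 and Col6a2 chains and a further chain, usually Col6a3. Col6a1 (chromosome 10, from 76708792 to 76726168) stood at 195, 448 and 1182 CPM, and Col6a2, 85161 bases away on the same strand, at 195, 367 and 998 CPM. In R63500, at 962 to 1182 CPM for Col6a1 and 790.1 to 998 CPM for Col6a2, both lay above the 806 to 867 and 671 to 715 CPM of R62848. Both chains passed edgeR's quasi-likelihood test between codes (adjusted p = 2.60e-08 and 1.11e-07). Their ratio in RPKM stayed between 1.90 and 2.39, the narrowest range of the 9 pairs (1.26-fold), with R63494 lowest at 1.90 and 1.94.

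Col6a3 (chromosome 1, from 90765923 to 90843971) varied more than its partners. It stood at 53.0, 156 and 884 CPM, a 16.7-fold range, with 614 to 884 CPM in R63500 and 457 to 643 CPM in R62848 against 53.0 to 204 CPM elsewhere (edgeR's quasi-likelihood test, adjusted p = 1.16e-08). The Col6a3 to Col6a1 ratio of RPKM was 0.208 to 0.276 in R62848 and 0.234 to 0.274 in R63500, and 0.0903 to 0.1502 in the other codes. Each library of R62848 and R63500 thus had more Col6a3 relative to Col6a1 than any library of the other codes.

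Col6a4, Col6a5 and Col6a6, a cluster on chromosome 9 whose chains can stand in for Col6a3, followed other libraries. Col6a5 was 138 to 163 CPM in R62850, where Col6a3 was 92.5 to 132 CPM, and 37.5 to 65.0 CPM in R63494. These overlapped R63500 (95.2 to 142 CPM) and R63289 (57.2 to 109 CPM). Its difference between codes passed edgeR's quasi-likelihood test (adjusted p = 0.00887). Col6a6 was 19.9 to 29.2 CPM in R62850 and 5.58 to 9.94 CPM in R62848, below every other library (edgeR's quasi-likelihood test, adjusted p = 0.000363). Col6a4 was low, with 14 to 236 counts per library, and stood highest in R63496_2 and R63496_3, at 13.3 and 7.19 CPM (edgeR's quasi-likelihood test, adjusted p = 0.00141).

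Among the fibril-associated chains, which sit on the surface of fibrils, Col14a1 had the smallest SD of log2 CPM of the 35 tested chains. Col14a1 (chromosome 15, from 55307750 to 55520803) stood at 215, 304 and 415 CPM, and every code overlapped at least 1 other. Its 1.93-fold range was near the median of 1.96 for all genes tested. Col14a1 did not pass the test between codes (edgeR's quasi-likelihood test, adjusted p = 0.173). Its SD of log2 CPM was 0.23 over all libraries and 0.21 within codes. Dcn, another fibril-binding gene, had a range of similar width, 445 to 880.2 CPM, but unlike Col14a1 it was called between codes. It was 799.8 to 880.2 CPM in R62848, above every other library, and 445 to 576 CPM in R63494. By contrast Col12a1, which is known for high expression under mechanical load and in tumour stroma, stood at 58.5, 146 and 687 CPM, with 326 to 687 CPM in R62848 and 453 to 474 CPM in R63500 (edgeR's quasi-likelihood test, adjusted p = 2.85e-06). Col16a1 had another order: 211 to 245 CPM in R62848, 177 to 200.1 CPM in R63500, 175 to 225 CPM in R62850 and 54.1 to 128 CPM in the other 3 codes (edgeR's quasi-likelihood test, adjusted p = 1.07e-08).

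Col15a1 and Col18a1, chains of the zone next to basement membranes, had ranges of 4.14-fold and 3.67-fold. Col15a1 was highest in R63500 (264 to 345 CPM) and Col18a1, the source of the fragment endostatin, in R62848 (138 to 171 CPM). Neither overlapped between these codes, and both passed edgeR's quasi-likelihood test (adjusted p = 2.19e-06 and 5.74e-06). Over the 35 chains, 8 had all 3 R63500 libraries above all 3 R62848 libraries (11.7% of all genes tested did so) and 5 had the opposite order (12.1% of all genes tested).

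Col8a1 and Col8a2 are the short chains of type VIII, a hexagonal network of vessels and the cornea. Col8a1 stood at 24.2, 56.9 and 141 CPM, with 116 to 141 CPM in R62848 and 119 to 137 CPM in R63500. Col8a2 did not follow in R63500, where it was 11.7 to 15.9 CPM beside 19.7 to 42.4 CPM in R62848. The Col8a1 to Col8a2 ratio of RPKM was 7.03 to 8.89 in R63500 and at most 6.31 in any other library. Col10a1, a chain of hypertrophic cartilage, had the largest SD of log2 CPM of all tested members (1.36). It had 7 and 8 counts in the R63494 libraries (0.303 and 0.484 CPM) and 30 to 327 counts elsewhere, up to 15.8 CPM in R63500_1. It passed edgeR's quasi-likelihood test (adjusted p = 0.0126) but not with either R63494 library left out (adjusted p = 0.0593 and 0.0857).

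Anchoring and transmembrane chains were low. Col7a1, the anchoring fibril under stratified epithelium, was 52.9 to 68.1 CPM in R63500 and 62.3 CPM in R62850_3, but 10.7 and 17.3 CPM in the other R62850 libraries and at most 35.1 CPM in the remaining codes. It did not pass between codes (edgeR's quasi-likelihood test, adjusted p = 0.0721), and without R62850_3 it did (adjusted p = 6.64e-07). R62850_3 was also the library with the highest acinar marker sum, 82143 CPM, whose part in this was not tested. Col13a1 and Col23a1, of the transmembrane group, reached at most 5.81 and 9.28 CPM, and Col23a1 was called (edgeR's quasi-likelihood test, adjusted p = 0.0192) but not without R62850_2 (adjusted p = 0.103). Col17a1, the hemidesmosome chain of stratified epithelium, had at most 12 counts in a library. Low fibril-associated chains were Col20a1 (2.76 to 12.7 CPM), which was not called, and Col9a3, which was (edgeR's quasi-likelihood test, adjusted p = 0.000202). Col9a3 ran from 0.462 CPM in R62848_1 to 5.96 CPM in R63500_1. Its R62848 libraries (0.462 to 1.30 CPM) lay below its R63500 libraries (3.89 to 5.96 CPM).

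The 9 chains below the filter were Col2a1, Col9a1, Col9a2, Col17a1, Col19a1, Col22a1, Col25a1, Col26a1 and Col28a1. Col25a1 and Col9a2 had counts in all 17 libraries, up to 64 and 41, and Col28a1 in 16, up to 57. Col9a1 and Col19a1 had counts in 1 library each, 2 and 5. A count of 0 allows up to 3 counts, which is 0.124 to 0.183 per 1000000 counts of a library's total. These chains are thus not shown to be absent.

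The genes that modify, fold and cross-link collagen were followed as a list of 32, all tested. Of these, 28 differed between codes, 87.5% beside 48.7% of all genes tested, and their median highest-to-lowest ratio was 4.18. P4hb, a subunit of prolyl hydroxylase that is also a disulfide isomerase, stood at 935 to 1307 CPM (1.40-fold) and the prolyl isomerase Ppib at 205 to 295 CPM (1.44-fold). Both were among the genes called (edgeR's quasi-likelihood test, adjusted p = 0.0126 and 0.0144). The prolyl isomerases Fkbp10 and Fkbp14 ranged 4.70-fold and 5.09-fold. Serpinh1, the collagen chaperone HSP47, was 397 to 621 CPM in R63500, 400 to 455 CPM in R62848 and 135 to 239.9 CPM elsewhere (edgeR's quasi-likelihood test, adjusted p = 3.94e-07).

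The widest ranges in that list belonged to P4ha3 and Lox. P4ha3, a catalytic subunit of prolyl hydroxylase, was 17.5 to 24.7 CPM in R63500 and 18.4 to 22.9 CPM in R62848, and 0.121 to 5.87 CPM elsewhere. Lox, the oxidase that starts collagen cross-links, was 160 to 211 CPM in R62848 and 116 to 194 CPM in R63500, and 10.4 to 47.4 CPM elsewhere. Both passed edgeR's quasi-likelihood test (adjusted p = 9.20e-09 and 9.04e-06). The members not called were Colgalt2, Mia3, P3h2 and P3h4, with adjusted p of 0.0597, 0.0634, 0.682 and 0.122 in edgeR's quasi-likelihood test.

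As sums, collagen receptors and fibril-associated proteins were highest in R62848 and R63500, as the collagen genes were. Receptor sums were 1014 to 1120 CPM in R62848, 1006 to 1065 CPM in R63500 and at most 868 CPM elsewhere. Sums of the fibril-associated proteins were 8867 to 9740 CPM, 9803 to 10395 CPM and at most 5954 CPM. Single genes such as Ddr1, Dcn and Tnxb did not keep this order. Of 9 tested receptors 8 differed between codes, beside 48.7% of all genes tested, with ranges of 1.67-fold and 1.41-fold for Itgb1 (368 to 614 CPM) and Ddr1 (187 to 265 CPM), the highest in median RPKM. The integrin chain Itga2, which pairs with Itgb1 to bind collagen, ranged from 5.07 CPM in R62850_2 to 72.3 CPM in R63500_2. Itga11, another collagen-binding integrin chain, was low (0.845 to 6.15 CPM) and was the receptor not called. Of 12 fibril-associated proteins 10 were called, beside the same 48.7%. Fn1, which encodes fibronectin, was 4067 to 4588 CPM in R63500, 2524 to 3415 CPM in R62848 and 504 to 1526 CPM elsewhere. The proteoglycans Dcn and Bgn, which bind fibrils, stood at 445 to 880.2 and 541 to 2020.5 CPM, and Fmod, a further one, at 32.2 to 222 CPM. Tnxb and Ogn were not called. Sparc, a collagen-binding glycoprotein, stood at 362, 827 and 2195 CPM in the lowest, median and highest library.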

How the data were processed

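RNA from 17 mouse bile duct samples was sequenced. The deposited table gives whole, not normalized counts per gene for 43346 genes, and 17 columns in another unit were left unused. Per the submitters' processing notes, the tools were STAR 2.6.1c, featureCounts and edgeR 3.40.2 with build mm10. The annotation and strand setting are unknown here, so overlapping genes are uncertain. The deposited gene lengths, another measure in the table and not stated further, set RPKM and the ratios between chains, but not their spread over libraries. Library totals were 16400556 to 24152314 counts.

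Genes were kept with edgeR 4.0.16 filterByExpr (intercept only, 15795 genes), scaled with TMM factors and expressed as CPM, or log2 CPM with a prior count of 2. RPKM were computed from these CPM. Codes were compared with edgeR's quasi-likelihood F test over all kept genes. On simulated counts of 15795 genes the test recovered 85% of 100 genes with a log2 SD of 0.5 between codes and 99% with a SD of 1, with 9 false calls. Beyond counting error every simulated gene had the same spread within codes. The tested collagen genes had a median SD within codes of 0.30, against 0.19 for all genes tested. These figures may thus be too favourable for them. Intervals and the 3-count floor cover counting error only. Members, classes, ratios, lists (111 genes, 5 matched by identifier) and the rule for named genes were set with earlier results of these data known: the 12 chains highest in median RPKM, the most variable of each class, the chains of the ratios, and in other lists the 3 highest and 2 most variable members. Other chains and genes were named after their values were seen. DESeq2 1.42.0 and limma 3.58.1 were alternatives, and R was 4.3.3. Coordinates of 41 of 44 members matched GENCODE M21 exactly.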

Additional observations from a re-analysis of the deposited data

How the results depend on the processing

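The number of collagen chains called between codes was 30 of 35 with the DESeq2 size factors, with upper quartile factors and with limma-trend, where 48.9%, 49.2% and 49.5% of all genes were called. It was 31 of 35 with DESeq2's likelihood ratio test (55.3% of all genes), 31 of 38 with codes as groups in the filter (42.2%), 32 of 44 without a filter (29.1%) and 28 of 34 without R62850 (40.9%). Leaving out each library in turn gave 28 to 30 chains, beside 43.4% to 51.5% of all genes tested, and 25 to 28 collagen biosynthesis genes, with the lone R63494 library then assumed to vary like the other codes. Counted without length adjustment, the median fibrillar share was 63.1% and the type VI share 15.001%. With types XV and XVIII counted as basement membrane, that share was 16.4% and the share of other types 9.92%. Single chains changed side for Col4a5, Col7a1, Col10a1 and Col23a1 as given above, and Col20a1 passed without a filter (adjusted p = 0.0465, DESeq2 0.0840) and without R63500_1 (adjusted p = 0.0325, edgeR). Col7a1 also passed with DESeq2 (adjusted p = 0.0182), and with edgeR without R62850_1 (adjusted p = 0.0122) or without all R62850 libraries (adjusted p = 1.05e-06), where Col23a1 did not pass (adjusted p = 0.155). Col10a1 did not pass the filter when any library outside R63494 was left out. The fold range of summed CPM was 5.54 with DESeq2 size factors and 5.76 with library totals, and the median collagen share was 0.848% without R62850. Without R62850, an alternative added after seeing the data, the median of each of the 9 ratios moved by less than 1 SD. The alternative with the other deposited unit was not run. No paired analysis was possible because the labels hold 1 group and the columns carry no sample number. Depth limits the 9 chains below the filter and the Col4a3 to Col4a4 ratio.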
